A study of Homo sapiens with 4 samples.

Results

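Zinc finger genes and the KLF, SOX, FOX, HOX, TBX, GATA and nuclear receptor genes were taken from the deposited tables by symbol, and 47 of the 1176 listed genes belonged to them. Of these, 20 were zinc finger genes by name (19 ZNF genes and ZBTB20) and 27 belonged to the other families (9 HOX, 6 FOX, 4 SOX and 2 each of KLF, TBX, GATA and NR). Gene IDs were matched to symbols, and a zinc finger gene was one whose symbol begins with ZNF, ZBTB, ZFP, ZSCAN, ZKSCAN, ZFHX or ZEB. No listed symbol began with ZFP, ZSCAN, ZKSCAN, ZFHX or ZEB, and 0 ETV genes were listed. FOXRED2, whose symbol also begins with FOX, encodes an oxidoreductase and was not counted.

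The RNA came from RCC4, a human clear cell renal carcinoma line without functional VHL, labelled as epithelial cells. Cells had been infected with a lentivirus carrying either a control hairpin (shControl, genotype given as WT) or a hairpin against the RNA named MIRE (shMIRE, genotype given as a knockdown of MIRE), and both groups were collected on day 3. Each group had 2 libraries, numbered 1 and 2. All 4 libraries thus come from infected cells of 1 line, and 1 hairpin per group is named, so the loss of MIRE and any other effect of that hairpin cannot be told apart. Whether the pair of libraries in a group stems from independent infections is not stated, and the p-values therefore cover a spread that may be technical.

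The C2H2 zinc finger is a short loop held by a zinc ion between a pair of cysteines and a pair of histidines, and strings of such fingers read DNA base by base. Many ZNF proteins also carry a KRAB domain, which recruits the corepressor TRIM28, and in mammals they are best known for silencing transposable elements. HOX, FOX, SOX, TBX and GATA proteins bind DNA through other folds and are known mostly as regulators of position and cell identity in the embryo. Kruppel-like factors (KLF) are themselves C2H2 proteins. Nuclear receptors (NR) pair a zinc-bound DNA-binding domain with a pocket for a ligand.

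The tables hold a selection: the smallest fold between group means was about 2 among higher and among lower genes alike, so nearly every listed gene differed by construction. Of all listed genes, 97.5% passed with limma (adjusted p under 0.05), 38.5% upward and 59.0% downward, and in 99.0% the 2 groups did not overlap. A member's call therefore adds little to its being listed, and what the tables leave out, MIRE itself among it, was not analysed here. Listed values, which look like read counts scaled between libraries and rounded, summed to between 2002994 and 2514039 per library. These sums are no library depth, which is unknown. Of 14 fixed markers of proximal tubule and renal carcinoma 1 was listed, of 6 fibroblast markers 1, and of 5 endothelial and 5 leukocyte markers 0, so the labelled cell type could not be checked. Changes in the make-up of the culture and changes in RNA per cell cannot be told apart in these bulk libraries.

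Zinc finger genes taken by symbol were more often higher in shMIRE and the other families more often lower. Among the 20 zinc finger genes, 12 had a higher and 8 a lower mean in shMIRE (60.0% higher, against 39.4% of all listed genes). Among the 27 genes of the other families, 7 were higher and 20 lower (74.1% lower, against 60.6% of all listed genes). With limma, 11 zinc finger genes rose, 7 fell and 2 did not pass, while 7 genes of the other families rose and 20 fell. The median log2 fold change was 1.07 for zinc finger genes, -1.49 for the other families and -1.16 for all listed genes. These medians are descriptions, since members are not replicates of a condition and the difference between the families was not tested.

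**Figure D1:**
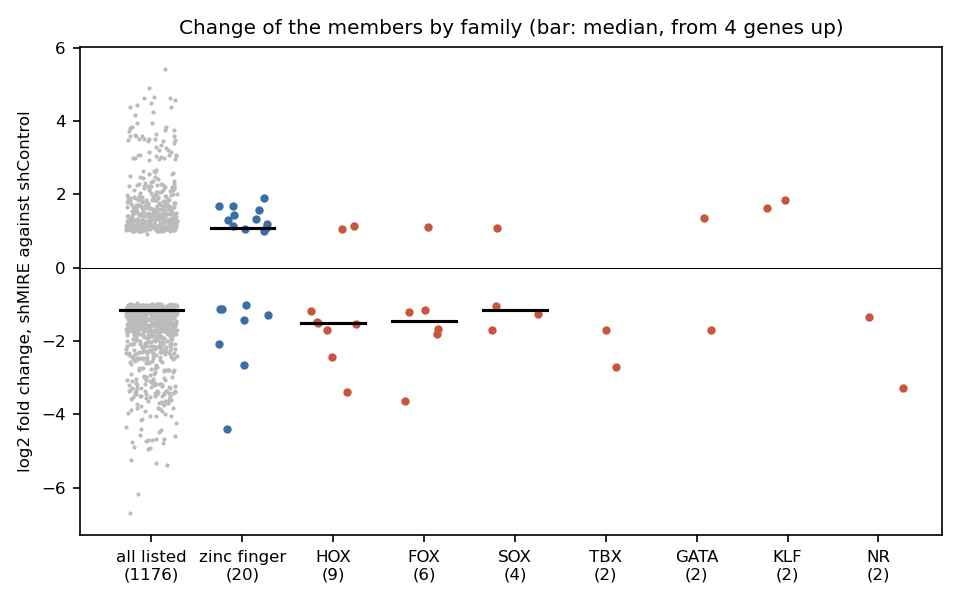
Log2 fold change of shMIRE against shControl (vertical axis, from log2 of value + 1, n = 2 libraries per group) for all 1176 listed genes and for each family, with 1 point per gene and a bar at the median for groups of 4 genes or more. The gap around 0 reflects how the genes were listed, and the zinc finger median lies at 1.07 while the HOX, FOX and SOX medians lie below 0.

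The split differed with the size of the value, which also depends on transcript length. In the other families, 12 of 27 genes had a mean value under 100 over the 4 libraries, and 11 of these 12 were lower in shMIRE (91.7%, against 68.4% of the 380 listed genes under 100). Among the 15 members of the other families at or above 100, 6 were higher and 9 lower, 60.0% lower against 56.9% of listed genes at that level. Zinc finger genes at or above 100 were 11 higher and 4 lower, and the 5 below 100 were 1 higher and 4 lower. Replicates of the control also differed in one direction for the other families. The value was larger in shControl replicate 2 than in replicate 1 for 24 of their 27 genes (88.9%), against 52.9% of all listed genes and 7 of 20 zinc finger genes. Replicate 2 over replicate 1 had a median of 1.28 in the other families, 0.902 in the zinc finger genes and 1.02 in all listed genes. A fit with 1 library left out has 1 residual degree of freedom per gene and takes its spread from the other group and from limma's moderation over genes, so a call that ends there does not show a smaller fold. With shControl replicate 2 left out, 6 of the 26 genes of the other families tested rose and 6 fell with limma (46.2% called, against 71.0% of listed genes). Leaving out shControl replicate 1 gave 5 rises and 9 falls (51.9%, against 72.5%). Without shMIRE replicate 1 there were 6 rises and 11 falls (63.0%, against 75.0%), and without shMIRE replicate 2 there were 6 rises and 9 falls (55.6%, against 76.7%). For zinc finger genes fewer calls were left whichever library was left out, as was so over all listed genes. Their median log2 fold change was 1.10 without shControl replicate 1 and 0.93 without shControl replicate 2, against 1.07 with all libraries.

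Zinc finger genes with many fingers made up most of those that rose. The longest coding transcript of each gene in GENCODE 29 was translated and searched for the C2H2 spacing, a pair of cysteines and a pair of histidines at set distances. All 20 zinc finger genes held at least 1 such pattern, with between 1 (ZNF395 and ZNF593) and 33 (ZNF462). Of 12 genes with at least 10 patterns, 9 rose and 3 fell. Of 8 genes with fewer, 2 rose, 4 fell and 2 did not pass. The border of 10 was chosen after the values were seen, so the split is a description.

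**Figure D2:**
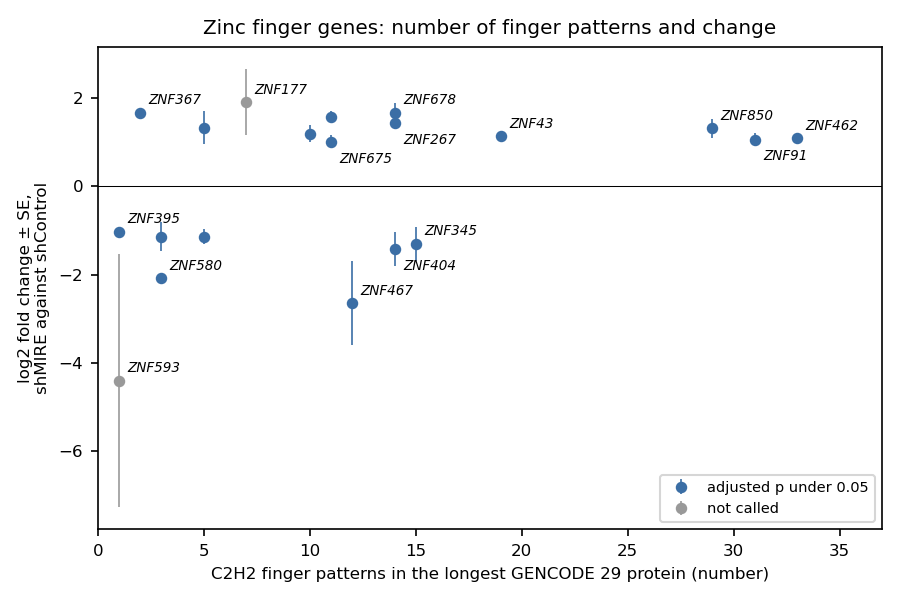
Number of C2H2 finger patterns in the translated protein (horizontal axis) and log2 fold change of shMIRE against shControl with its SE from limma (vertical axis) for the 20 zinc finger genes, with genes that did not pass in grey. The genes with the most patterns, ZNF850 (29), ZNF91 (31) and ZNF462 (33), were all higher in shMIRE.

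ZNF43, ZNF91 and ZNF675 are KRAB zinc finger genes on the short arm of chromosome 19, and all of them rose (ZNF91 and ZNF675 were chosen after their values were seen). ZNF91, known in humans for repressing SVA retrotransposons, stood at 536 and 538 in the shControl libraries against 988 and 1269 in shMIRE. This gene (ENSG00000167232, chromosome 19, 23304991 to 23395560, GRCh38, minus strand) was 2.10-fold higher (log2 fold change 1.06, SE 0.15, limma adjusted p = 0.00187). ZNF43 was at 602 and 632 in shControl against 1267 and 1456 in shMIRE, and ZNF675 at 304 and 262 against 571 and 566. In each of these genes both shMIRE libraries lay above both shControl libraries. ZNF43 (chromosome 19, 21804949 to 21852125) rose 2.21-fold and ZNF675 (23525631 to 23687220) 2.01-fold. The call of ZNF91 ended without shControl replicate 1 or without replicate 2 (limma adjusted p = 0.0644 in both). Genes of this family resemble each other closely, but the longest coding transcripts of ZNF43, ZNF91 and ZNF675 shared 3.85%, 6.49% and 3.91% of their 50-base words with other genes.

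Other genes with strings of fingers rose outside that region. ZNF678 on chromosome 1 was at 223 and 197 in shControl against 565 and 795 in shMIRE, a 3.24-fold rise with a log2 fold change of 1.67 (SE 0.22, limma adjusted p = 0.0013), and without shControl replicate 2 its adjusted p was 0.0575. ZNF267, a KRAB gene on chromosome 16, rose 2.69-fold, from 392 and 325 to 1009 and 923. ZNF273 on chromosome 7 rose 2.31-fold, from 229 and 197 to 549 and 433. ZNF850, with 29 finger patterns, rose 2.49-fold from 102 and 94 to 252 and 237. In all of these genes the 2 groups were apart. The call of ZNF273 ended without shControl replicate 1 (limma adjusted p = 0.0501) or replicate 2 (0.064). ZNF462 (ENSG00000148143, chromosome 9, 106863097 to 107013634), a long protein of 2506 residues linked to a human developmental disorder, was at 1482 and 1246 in shControl against 2984 and 2806 in shMIRE, 2.12-fold higher (log2 fold change 1.09, SE 0.11, limma adjusted p = 0.00057). ZNF697 on chromosome 1 rose 2.96-fold, from 567 and 682 to 1958 and 1736.

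Among zinc finger genes with few fingers, ZNF367 (ENSG00000165244, chromosome 9, 96385941 to 96418329, minus strand) had the larger fold of the 2 that rose. It holds 2 finger patterns in 350 residues. Values were 756 and 877 in shControl and 2736 and 2454 in shMIRE, 3.18-fold higher, with a log2 fold change of 1.67 (SE 0.11, limma adjusted p = 0.000198). ZBTB20, a BTB domain repressor known for silencing the alpha-fetoprotein gene in mouse liver, was at 225 and 124 in shControl against 516 and 344 in shMIRE, 2.46-fold higher. Its libraries spread widely within each group, and its call ended whichever library was left out (limma adjusted p = 0.0658 to 0.203). In ZBTB20 a non-coding gene annotated on the same strand covers 47.7% of the exonic bases, so reads of the pair may be divided between them.

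ZNF580, ZNF395 and ZNF641 fell and kept their calls without each library in turn. ZNF580 (ENSG00000213015, chromosome 19, 55635016 to 55643469, plus strand) encodes a short protein of 172 residues with 3 finger patterns. It was at 5671 and 6888 in shControl against 1548 and 1414 in shMIRE, a 4.24-fold fall (log2 fold change -2.08, SE 0.12, limma adjusted p = 0.000134). The neighbouring ZNF581 covers 15.1% of its exonic bases on the same strand. ZNF395 (ENSG00000186918, chromosome 8, 28345585 to 28402701), known as a gene induced by hypoxia, was at 15697 and 14555 in shControl against 7480 and 7345 in shMIRE, 2.04-fold lower (log2 fold change -1.03, SE 0.07, limma adjusted p = 0.000177). FBXO16, which overlaps it on the same strand, shared 41.7% of the 50-base words of its transcript, so part of this value is uncertain. ZNF641, a KRAB gene on chromosome 12, fell 2.20-fold from 639 and 556 to 294 and 249.

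The remaining falls among zinc finger genes were at low values. ZNF404 was at 92 and 64 in shControl against 33 and 24 in shMIRE, ZNF345 at 165 and 108 against 43 and 67, and ZNF396, which carries a SCAN domain, at 105 and 105 against 57 and 39. The groups were apart in all of these, and the folds were 2.74, 2.48 and 2.19. A non-coding gene on the same strand covers 17.6% of the exonic bases of ZNF404. With limma, the calls of ZNF404 and ZNF345 ended whichever library was left out (adjusted p = 0.0621 to 0.102 and 0.072 to 0.19). The call of ZNF396 ended without shControl replicate 1 (adjusted p = 0.137) or 2 (0.14) and without shMIRE replicate 2 (0.0654), and when sums of the listed values were equalised (0.0506). ZNF467 was at 132 and 163 in shControl against 61 and 8 in shMIRE, with shMIRE replicate 2 far below replicate 1. Its fall (limma adjusted p = 0.0419) was lost without shControl replicate 1 (0.266) or 2 (0.306) and without shMIRE replicate 2 (0.0551), as well as without the intensity trend (0.0863) and with a pseudocount of 0.1 (0.0561). Quantile normalisation ended the calls of ZNF404, ZNF345, ZNF396 and ZNF467 (limma adjusted p = 0.0901, 0.05, 0.0535 and 0.0679). This setting works against falls in a list where most genes are lower. Over all listed genes, downward calls went from 694 to 545 with it and upward calls from 453 to 455. Falls of other listed genes thus ended there as well, but how far a fall shrank differed between genes. The median log2 fold change of all listed genes moved from -1.16 to -0.84 with this setting. That of ZNF345 moved from -1.30 to -1.08, and that of NR1I3, a gene at very low values, from -3.29 to -0.45. Why single calls ended was not tested.

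Both zinc finger genes that did not pass overlap another gene. ZNF593, whose yeast counterpart acts in ribosome assembly, was listed at 442 in shControl replicate 1 and at 0 in the other 3 libraries (limma adjusted p = 0.189). All of its 769 exonic bases are also covered by a protein-coding gene on the opposite strand, and whether the counting used strand is not given in the sources used here. Without shControl replicate 1 no value above 0 is left. ZNF177 was at 16 and 75 in shControl against 136 and 132 in shMIRE, and did not pass (limma adjusted p = 0.0548). Its groups were apart, and it passed without shControl replicate 2 (0.0213), with equal sums of the listed values (0.0256) and among genes with a mean above 5 (0.0381). The read-through gene ZNF559-ZNF177 holds 97.4% of the 50-base words of its transcript, so how reads were assigned is uncertain.

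**Figure D3:**
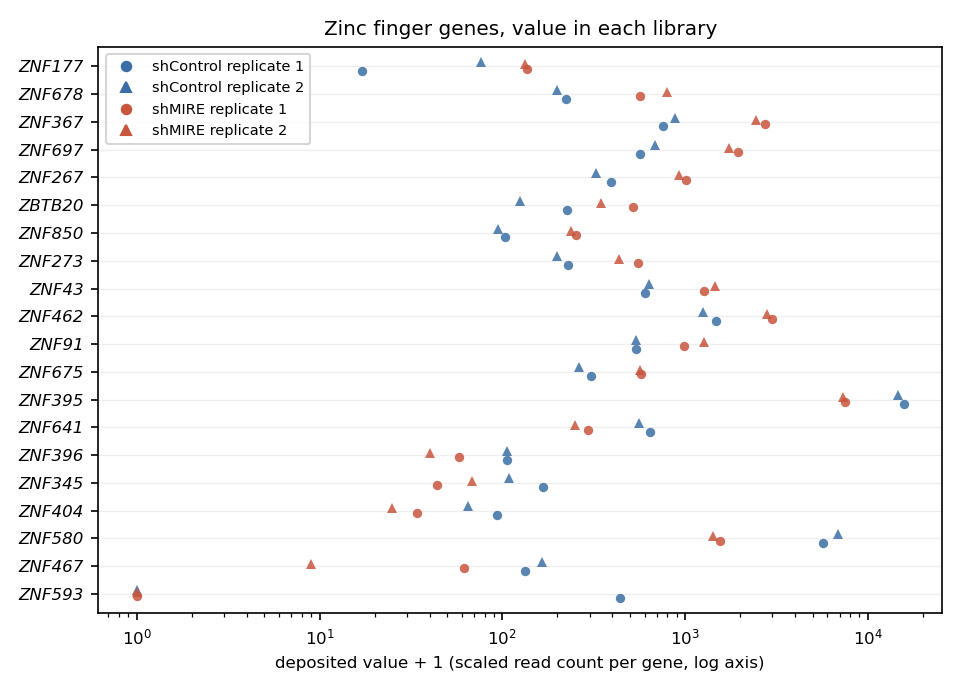
Deposited value plus 1 (horizontal log axis) of each of the 20 zinc finger genes in each library, ordered by log2 fold change with the largest rise at the top. The 2 shControl libraries (blue) and 2 shMIRE libraries (red) do not overlap in 19 of the 20 genes, against 99.0% of all listed genes. The exception is ZNF593 at 442 in 1 library and 0 in the other 3.

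All 4 listed HOXA genes fell. HOX genes lie in clusters whose order follows the body axis. Listed from the HOXA cluster were HOXA5, HOXA6, HOXA9 and HOXA10, within 39.2 kb of chromosome 7 (27141052 to 27180261, GRCh38). The other genes of the cluster are not listed, so whether the cluster changed as a whole could not be described. HOXA9 (ENSG00000078399, minus strand), a factor of blood stem cells and leukaemia, was at 3289 and 3593 in shControl against 1164 and 1288 in shMIRE, 2.81-fold lower (log2 fold change -1.49, SE 0.09, limma adjusted p = 0.000164). HOXA5, required in mice for lung development, was at 1178 and 1279 against 466 and 402, 2.83-fold lower. HOXA10, which acts in uterine development, was at 1666 and 1591 against 707 and 729, 2.27-fold lower. HOXA6 was at 223 and 309 against 85 and 75, 3.33-fold lower. In each of the 4 genes both shMIRE libraries lay below both shControl libraries. HOXA6 lost its call without shControl replicate 2 (limma adjusted p = 0.0518) or shMIRE replicate 2 (0.0506), while HOXA5, HOXA9 and HOXA10 passed without each library in turn. A read-through gene covers 13.1% of the exonic bases of HOXA9 and 9.9% of those of HOXA10. On the opposite strand, HOXA-AS3 covers 39.3% of the exonic bases of HOXA6, and HOXA10-AS covers 16.4% of those of HOXA10 and 13.9% of those of HOXA9.

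HOXA5, HOXA9 and HOXA10 each hold the heptamer GCTGTGT in the longest 3′ UTR annotated in GENCODE 29, a word looked for because it was known from these data to be more frequent among listed genes that were lower. It was present in 289 of 704 lower genes with an annotated 3′ UTR (41.1%) and in 84 of 459 higher ones (18.3%). Among the lower members, 3 of 8 zinc finger genes held it (ZNF395, ZNF580 and ZNF641) and 3 of 20 genes of the other families, and among the higher members ZNF850 and ZBTB20. At a mean value under 100, 0 of 11 lower genes of the other families and 0 of 4 lower zinc finger genes held it, against 19.2% of the 255 lower listed genes at that level. At or above 100 it was in 3 of 9 and 3 of 4, against 53.5% of 449. The sites below show the word in capitals with its flanks, in the sense of the mRNA and as DNA letters, for HOXA5, HOXA9, HOXA10, ZNF580 and ZNF641, which fell, and for ZBTB20 and ZNF850, the higher members with the word.
HOXA5, chr7:27141560-27141586, minus strand: tatgaagcaaGCTGTGTtacttgaagt
HOXA9, chr7:27163316-27163342, minus strand: agtgctgataGCTGTGTgtgttagctt
HOXA10, chr7:27171412-27171438, minus strand: ggagtgctgtGCTGTGTttaatcaggg
ZNF580, chr19:55643195-55643221, plus strand: cccctttctaGCTGTGTgatgtagacc
ZNF580, chr19:55643272-55643298, plus strand: gtccagctgtGCTGTGTgagcctgtgc
ZNF641, chr12:48341974-48342000, minus strand: ttttctagggGCTGTGTtctggggatg
ZBTB20, chr3:114334636-114334662, minus strand: acttgggtttGCTGTGTttaaaagtca
ZNF850, chr19:36746081-36746107, minus strand: ttgaataggaGCTGTGTaaagtaacac
ZNF850, chr19:36744596-36744622, minus strand: acaggtttttGCTGTGTtgcccaggct
A match is a description of the letters in the annotated transcript, and no part of it in the change was tested. HOXA6, with an annotated 3′ UTR of 262 bases, held none.

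The HOX genes of other clusters moved both ways. HOXB4 (ENSG00000182742, chromosome 17, 48575513 to 48580111), known for expanding blood stem cells in culture, was at 790 and 804 in shControl against 1787 and 1738 in shMIRE, 2.21-fold higher (log2 fold change 1.14, SE 0.08, limma adjusted p = 0.000221). HOXC5 was at 40 and 57 against 91 and 110, 2.07-fold higher, but lost its call whichever library was left out (adjusted p = 0.0778 to 0.15), and another transcript unit under the same symbol holds 58.9% of its 50-base words. The group 13 genes, which pattern the distal ends of the body, were lower in shMIRE and at most at 123 in any library. HOXB13, a marker of prostate, was at 17 and 29 in shControl against 4 and 0 in shMIRE. HOXD13 was at 65 and 123 against 11 and 22, and HOXC13, which acts in hair and nail, at 49 and 50 against 16 and 17. Groups were apart in all 3, with falls of 11.5-fold, 5.70-fold and 3.00-fold. With limma HOXC13 passed without each library in turn, though not with quantile normalisation (adjusted p = 0.0514), and HOXD13 did not pass without any of them (0.0501 to 0.104). HOXB13 did not pass without shControl replicate 1 (0.142) or 2 (0.194) and without shMIRE replicate 2 (0.0528), with quantile normalisation (0.0826) or with a pseudocount of 0.1 (0.0513).

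**Figure D4:**
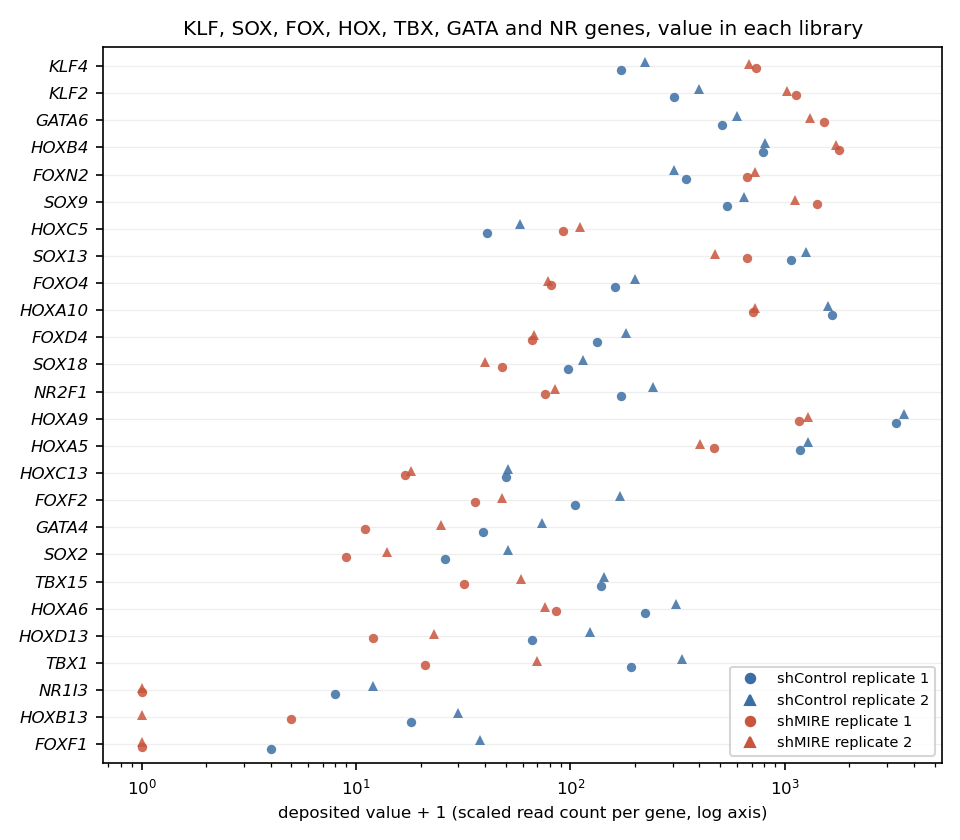
Deposited value plus 1 (horizontal log axis) of the KLF, SOX, FOX, HOX, TBX, GATA and NR genes described in the text, in each library, ordered by log2 fold change with the largest rise at the top. Both shMIRE libraries lie above both shControl libraries in the 7 genes that rose and below them in those that fell. Groups were also apart in 99.0% of all listed genes. Many genes that fell have values under 100.

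The 2 listed Kruppel-like factors had the largest rises of the other families. KLF4 (ENSG00000136826, chromosome 9, 107484852 to 107490482, minus strand), an epithelial differentiation factor and reprogramming factor, was at 172 and 221 in shControl against 736 and 677 in shMIRE, 3.60-fold higher (log2 fold change 1.85, SE 0.18, limma adjusted p = 0.000505). KLF2 (ENSG00000127528, chromosome 19, 16324817 to 16327874), known in endothelium as a factor induced by blood flow, was at 304 and 396 against 1126 and 1028, 3.08-fold higher (log2 fold change 1.63, SE 0.17, limma adjusted p = 0.000596). Both groups were apart in each gene and both calls held without each library in turn. Each translated protein held 3 C2H2 patterns, in 479 residues for KLF4 and 355 for KLF2.

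The KLF2 promoter is shown because a MEF2 site there is a known control element of the gene in endothelial cells. The sequence is that of RefSeq (GRCh38.p14, chr19:16324576-16324875, plus strand), from 250 bases before to 50 after the start, with the MEF2 pattern, CTA and TAG spaced by 4 bases of any kind, in capitals.
KLF2: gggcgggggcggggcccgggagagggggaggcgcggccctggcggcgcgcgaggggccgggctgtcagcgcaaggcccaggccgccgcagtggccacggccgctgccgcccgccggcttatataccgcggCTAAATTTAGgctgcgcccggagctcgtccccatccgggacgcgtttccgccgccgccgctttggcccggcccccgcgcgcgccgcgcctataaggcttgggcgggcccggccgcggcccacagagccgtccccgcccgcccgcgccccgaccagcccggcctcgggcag
The pattern was in 2.73% of 35116 RefSeq promoters of this length, 2.02% of 1338 promoters of listed genes and 5 of the 48 promoters matched to members (10.4%). The 5 were those of KLF2 and HOXA6, 1 of the 2 of NR2F1 and 2 of the 3 of ZNF580, and the 2 of ZNF580 overlap, so they share most of their bases. The KLF4 promoter held no match in this window. The 48 promoters do not stand for 1 member each. Some members had none, HOXA5, HOXB4, SOX9, ZNF395 and ZNF462 among them, and others had several, ZBTB20 the most. The other motifs searched on both strands were TGANTCA (AP-1), GGG and CC spaced by 5 bases of any kind (a loose NF-kB form), and GGGCGG (GC box). AP-1 was in 10.4% of members' promoters, 7.77% of those of listed genes and 7.71% of all. Most of the members' AP-1 matches lay in promoters of ZBTB20. The NF-kB form was in 58.3%, 70.9% and 58.7%, and the GC box in 45.8%, 58.1% and 45.0%.

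GATA6 and GATA4, close relatives that act in heart and gut endoderm, went in opposite directions. GATA6 (ENSG00000141448, chromosome 18, 22169443 to 22202528) was at 507 and 599 in shControl against 1518 and 1312 in shMIRE, 2.56-fold higher (log2 fold change 1.36, SE 0.14, limma adjusted p = 0.000566). GATA4 was at 38 and 73 against 10 and 24, 3.26-fold lower, and its groups did not overlap. The call of GATA4 ended whichever library was left out (limma adjusted p = 0.0705 to 0.261), with quantile normalisation (0.129), with equalised sums of the listed values (0.0588) and without the intensity trend (0.0587).

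Of the 4 SOX genes, SOX9 rose and SOX2, SOX13 and SOX18 fell. SOX9, a factor of cartilage and of kidney repair, was at 539 and 641 in shControl against 1409 and 1121 in shMIRE, 2.14-fold higher, and did not pass without shControl replicate 1 (limma adjusted p = 0.0639). SOX13 was at 1072 and 1252 against 669 and 471, 2.04-fold lower, and did not pass without shControl replicate 1 (0.0899) or replicate 2 (0.123). SOX18, an endothelial and lymphatic factor, was at 96 and 114 against 47 and 39, and SOX2, a factor of pluripotent and neural stem cells, at 25 and 50 against 8 and 13. The groups were apart in all 4 SOX genes. With limma the call of SOX2 ended whichever library was left out (adjusted p = 0.0528 to 0.163) and with quantile normalisation (0.136), and that of SOX18 without shControl replicate 1 (0.0673) or 2 (0.0883) and without shMIRE replicate 2 (0.0596).

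Forkhead genes were lower with the exception of FOXN2. FOXN2 was at 344 and 302 in shControl against 665 and 728 in shMIRE, 2.16-fold higher (log2 fold change 1.11, SE 0.14, limma adjusted p = 0.0012). FOXF2 was at 104 and 169 against 35 and 47, and its relative FOXF1, like it a factor of mesenchyme around the gut, at 3 and 37 in the control libraries and listed at 0 in both others. FOXO4, a target of insulin signalling through AKT, was at 160 and 199 against 80 and 78, and FOXD4 at 132 and 180 against 65 and 67. All 6 FOX genes had groups that did not overlap. For FOXF2, FOXO4 and FOXD4 the call ended whichever library was left out (limma adjusted p = 0.0513 to 0.0994, 0.056 to 0.0828 and 0.0529 to 0.0898). That of FOXF1 ended without shMIRE replicate 1 (0.214) or replicate 2 (0.21), with quantile normalisation (0.233) and without the intensity trend (0.0587). FOXD4 shared 63.1% of its 50-base words with other genes, among them the near copy FOXD4L1, so its value is uncertain.

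Both T-box genes and both listed NR genes fell. TBX1, a gene of the pharyngeal arches, was at 190 and 332 in shControl against 20 and 69 in shMIRE, 5.87-fold lower, and its limma call ended without shControl replicate 1 (adjusted p = 0.129) or 2 (0.195) and without shMIRE replicate 1 (0.0816). TBX15, which acts in the mouse skeleton, was at 138 and 143 against 31 and 58, 3.16-fold lower, and did not pass without shControl replicate 1 (0.127) or replicate 2 (0.134). NR2F1, the orphan receptor COUP-TF1, was at 172 and 242 against 75 and 84, 2.60-fold lower, and did not pass without shControl replicate 2 (0.0791) and without shMIRE replicate 1 (0.0797) or 2 (0.0644). NR1I3, the xenobiotic receptor CAR of liver, was at 7 and 11 in the control libraries and listed at 0 in both others, and did not pass with quantile normalisation (0.268). The groups were apart in all of these. TOMM40L on the opposite strand covers 661 of the 3305 exonic bases of NR1I3. In the members for which no overlap is given, any 1 other gene covers at most 12.8% of the exonic bases (HOXB4).

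Lists of genes that work with these families or resemble them were looked up as well. Of 27 corepressors of KRAB zinc finger proteins and of 30 members of the corepressor complexes used by other zinc finger proteins, TRIM28 and SETDB1 included, 0 were listed, so they are outside what could be described. Of 38 nuclear receptors under other names and coregulators, 5 were listed, 2 rose and 3 fell. VDR, the vitamin D receptor, rose 2.93-fold from 421 and 339 to 1052 and 1177, and the coactivator gene PPARGC1B rose 2.18-fold from 393 and 374 to 851 and 821. THRA, a thyroid hormone receptor, fell 2.59-fold from 883 and 799 to 341 and 308, and RARA, a retinoic acid receptor, fell 2.09-fold from 4543 and 5414 to 2482 and 2278.

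Of 96 C2H2 genes with other names, 10 were listed, 3 rose, 6 fell and 1 did not pass. By mean, 3 were higher and 7 lower (70.0% lower, against 60.6% of all listed genes). The zinc finger genes taken by symbol were 40.0% lower, so their leaning upward did not extend to these relatives. GLI2, an effector of Hedgehog signalling, rose 2.77-fold from 232 and 236 to 682 and 615, and HIVEP3 rose 2.30-fold from 1244 and 1273 to 2930 and 2856. PRDM8 was at 49 and 102 against 271 and 149, and lost its call whichever library was left out (limma adjusted p = 0.0971 to 0.257). GTF3A, the factor TFIIIA of 5S RNA transcription, fell 2.14-fold from 6706 and 7115 to 3361 and 3095, and PLAGL1, an imprinted growth regulator, fell 2.10-fold from 4428 and 4090 to 2028 and 2037. OSR2, SALL2 and SP6 fell 3.80-fold, 3.10-fold and 3.86-fold from means of 85.5, 237 and 54.0, each with a call that ended without shControl replicate 1 (limma adjusted p = 0.0568, 0.133 and 0.0787), and those of SALL2 and SP6 also without shControl replicate 2 (0.161 and 0.0929). WT1, a kidney development gene, was at 14 and 42 in the control libraries and listed at 0 in both others.

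Of 47 partners and relatives of the other families, 4 were listed. ELK3, an ETS factor, rose 2.23-fold from 3347 and 3187 to 7219 and 7334. ELF3, an epithelial ETS factor, was at 4790 and 5143 in shControl against 1618 and 1713 in shMIRE. LMO2, an adaptor that bridges GATA factors, was at 3 and 0 against 22 and 30 and did not pass without shMIRE replicate 1 (0.0936) or replicate 2 (0.108).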

How the data were processed

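RNA of RCC4 cells was sequenced in 4 libraries, 2 per group. The submitters' processing notes name hg38, DESeq2 1.20.0, featureCounts 1.5.0-p3 and HISAT2 2.0.5, with no role for any. The deposited score per gene is a whole number that the authors appear to have made from read counts by scaling and rounding, since group ratios end at about 2 and the median ratio between replicates is near 1 (1.02 and 1.01). How it was scaled and how the 1176 genes were selected is not given in the sources used here.

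Log2(value + 1) was compared between groups with limma 3.58.1 (R 4.3.3) with an intensity trend, over all 1176 genes with a mean above 1, with Benjamini-Hochberg adjustment and a threshold of 0.05. The added 1 shrinks log2 changes of low genes. Folds are ratios of group means, so a fold and a log2 fold change can differ where replicates are uneven. In ZNF467 the fall was 4.28-fold and the log2 fold change -2.64, larger than that fold gives. The fit was also run on simulated data in which most genes had no change. Nearly all listed genes differ, so that run is no check of calls on such a selection. Symbols were found for 1175 gene IDs. Gene models, exon overlaps, 3′ UTRs of at least 20 bases and translations came from GENCODE 29 (GRCh38), and promoters from RefSeq. Overlap of sequence was the share of 50-base words of the longest coding transcript found in other genes.

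The members and lists were chosen with earlier results of these data known. Named were all members of the families but ZNF, the 8 largest rises and 8 largest falls among called ZNF genes with a mean of at least 50 and groups apart, members not called or at 0 in a group, and all listed genes of the fixed lists. A few genes that this rule names are counted but not reported by name here. ZNF91 and ZNF675 fall outside this rule and were chosen after their values were seen. Library depth is unknown, so no counting interval is given.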

Additional observations from a re-analysis of the deposited data

How the results depend on the processing

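Alternatives were quantile normalisation, equal sums of the listed values, no intensity trend, no filter or a mean above 5, a replicate block, a pseudocount of 0.1, a threshold of 0.01 and each library left out in turn. Chosen after the data were seen were restrictions to members with a mean of at least 100, to members without shared sequence and to zinc finger genes with a C2H2 pattern in GENCODE 29, and the addition of FOXRED2. The restriction by RefSeq protein was not run, because RefSeq proteins were not used here. The sign of each of the 47 members held under every alternative run in which it was fitted. Genes were listed from a fold of about 2 upward, so a sign could hardly turn, and this is no check of the members. How many of all listed genes kept their sign was not counted. The 18 zinc finger calls ranged from 11 to 15 with 1 library left out and stood at 14 with quantile normalisation (11 up, 3 down). The 27 calls of the other families ranged from 12 to 17 with 1 library left out, and were 21 with quantile normalisation (7 up, 14 down) and 15 of the 15 members with a mean of at least 100. Calls held without each library in turn in some genes of both parts. NR1I3 was among them, though at only 7 and 11 in shControl and 0 in both shMIRE libraries. How many listed genes kept their calls in this way was not counted, so no count of members is given. The median log2 fold change of the other families moved from -1.49 to -1.01 with quantile normalisation, -1.19 with equal sums and -1.17 at a mean of at least 100, and ranged from -1.55 to -1.21 with 1 library left out. That of zinc finger genes ranged from 0.93 to 1.10 with 1 library left out and was 1.32 with quantile normalisation and 1.38 with equal sums. The median of all listed genes moved from -1.16 to -0.84 with quantile normalisation and to -0.85 with equal sums. It was -1.05 for listed genes with a mean of at least 100. These settings thus moved the listed genes as a whole and not the members alone. Beyond the fewer genes or libraries that a restriction leaves, the cause was not tested. With the replicate block, 20 zinc finger genes and 27 of the other families passed, as did 99.9% of all listed genes. The deviations of same-numbered libraries had a correlation of 0.0321 over genes, and the numbers were not taken as pairs. Library totals are unknown, so what depth limits could not be computed.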
